A study of Rattus norvegicus with 8 samples.

Results

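Of the 51995 circular RNAs (circRNAs) listed in rat cerebral cortex, 20544 (39.5%) were above 0 in exactly 1 of the 8 libraries. These single-library circRNAs were chosen by the deposited abundance values themselves, in RPM (each junction's reads scaled to the library's total reads), with every library counted alike. Their number and their levels are therefore given as a description with no test. Spans and positions were not used by the choice and were tested. The same abundance values did decide which circRNAs count as listed in all 8 libraries, or in 4 or more. Tests of positions shared with such circRNAs are therefore not independent of the choice. The samples were total RNA from the ipsilateral cortex around the injury 24 h after moderate traumatic brain injury (mTBI, 4 libraries), and from the same cortical site in sham animals (4 libraries). All animals were perfused with cold saline before dissection; strain, sex and age are not in the labels used here. Injury and sham libraries share a kit that depletes ribosomal RNA and keeps strand. The table gives each circRNA by chromosome, strand, start and end on Rnor_6.0 and carries no gene names, so neither host genes nor cortical marker genes could be looked up.

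A circRNA forms when the splicing machinery joins a downstream splice donor back to an upstream splice acceptor, a reaction called back-splicing. The closed loop has no free ends, which makes it stable against exonucleases, and brain is known for a rich set of circRNAs. One host transcript can give several circRNAs that use the same acceptor or the same donor with different partners, so that shared end positions show which circRNAs come from common splice sites. The sequencing read that crosses the back-splice junction is what identifies each circRNA.

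The whole table held 384910 to 452692 junction reads per library and 21508 to 23713 listed circRNAs per library. Read numbers here rest on taking the smallest listed value of each library, 0.0257 to 0.0262 RPM, as 2 reads. All listed values were whole multiples of 1 such read within 0.01 read. A circRNA listed at 0 may thus have had 1 read, none, or not have been called. In bulk tissue, fewer cells of a type and less RNA per cell cannot be told apart.

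Sham and mTBI libraries held almost the same number of single-library circRNAs, 10248 in sham (49.9%) and 10296 in mTBI (50.1%). The sham libraries held 2587, 2268, 2620 and 2773 of them in replicates 1 to 4. The mTBI libraries held 2420, 2411, 2612 and 2853. The groups overlapped, with sham replicate 2 below all mTBI libraries and mTBI replicate 4 above all sham libraries, and their means were 2562 ± 212 in sham and 2574 ± 208 in mTBI (SD, n = 4 each). They made up 11.3% ± 0.607 of the circRNAs listed in a sham library and 11.4% ± 0.464 in an mTBI library (SD, n = 4 each). The mTBI library with the most single-library circRNAs, replicate 4, also had the most junction reads (452692). Libraries with 384910 to 392786 junction reads held 2268 to 2420 single-library circRNAs each, and those with 419992 to 452692 held 2587 to 2853. Within these ranges depth did not order the libraries exactly. The fewest single-library circRNAs were in sham replicate 2, at 392786 reads, and the fewest reads in mTBI replicate 1. The part of depth in these numbers was not tested. With reads thinned to 384910 in every library, the mean was 2445 in sham and 2510 in mTBI.

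Although they were 39.5% of all listed circRNAs, single-library circRNAs carried 1.83% of the summed RPM of the series. The circRNAs listed in all 8 libraries, here called all-8 circRNAs, numbered 9082 (17.5%) and carried 85.8%. Per library, the single-library circRNAs summed to 98.4, 89.6, 98.6 and 109 RPM in the sham replicates and to 93.5, 89.5, 102 and 108 RPM in the mTBI replicates. Those sums were 1.74% to 1.95% of a sham library and 1.79% to 1.88% of an mTBI library. The mean sums, 98.9 ± 8.01 RPM for sham and 98.4 ± 8.52 RPM for mTBI libraries (SD, n = 4 each), differed by much less than the spread within either group.

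Most single-library circRNAs stood at or next to the lowest value that could be listed. The smallest value, 2 reads, accounted for 10444 of them (50.8%). Another 5478 (26.7%) stood at 3 reads, 2541 (12.4%) at 4 reads and 1984 (9.66%) at 5 to 9 reads. Only 97 had 10 or more reads, 49 in sham libraries and 48 in mTBI libraries. In single libraries the share at 2 reads ran from 48.8% to 52.9% in sham and from 48.0% to 53.4% in mTBI. Mean levels were correspondingly close, 0.0386 ± 0.000935 RPM for sham and 0.0382 ± 0.000872 RPM for mTBI libraries (SD, n = 4 each).

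**Figure D1:**
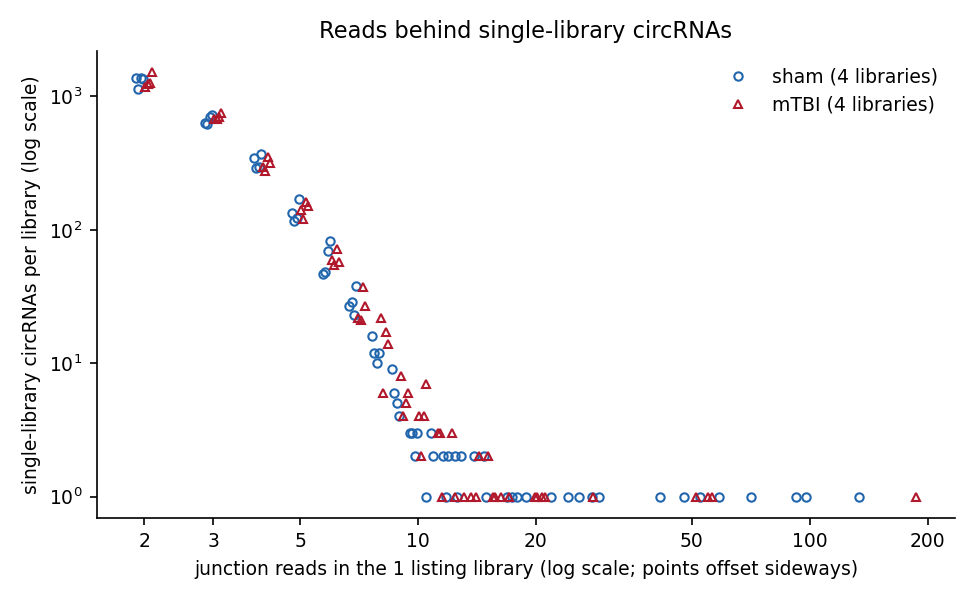
Number of single-library circRNAs in each library (vertical axis, log scale) against the junction reads behind them (horizontal axis, log scale), with blue circles for the 4 sham and red triangles for the 4 mTBI libraries. Counts fall from 1138 to 1524 per library at 2 reads to at most 7 per library at 10 reads, and a thin tail reaches 178 reads.

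Just outside the choice stood 7053 circRNAs listed in exactly 2 libraries. Their highest value had a median of 0.0393 RPM (3 reads), against 0.0262 RPM (2 reads) for the single-library circRNAs. Of these 7053, 1592 (22.6%) were listed in 2 sham libraries, 1450 (20.6%) in 2 mTBI libraries and 4011 (56.9%) in 1 library of each group. With 4 libraries per group, more pairs of libraries cross the groups than lie within them, so no group preference is read from these shares.

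None of the single-library circRNAs could enter a test of mTBI against sham, since testing required a listing in at least 4 libraries. That test ran on 20174 circRNAs on the scale of log2(RPM + 0.0259), where 5 passed an adjusted p of 0.05 (limma), or 0.0248%. Without mTBI replicate 3 it was 2, without mTBI replicate 1 it was 3 and without sham replicate 3 it was 9. On reads, limma voom, chosen after seeing the data, passed 3 (0.0149%). The filter left all 20544 single-library circRNAs out, and the choice of members used the same values, so nothing is read from that count.

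The next question was where on the genome the single-library junctions lie, relative to junctions that every library shows. A start or end was counted as used when another circRNA listed in all 8 libraries had the identical position on the same chromosome and strand; start is the lower coordinate. By this measure 3599 single-library circRNAs (17.5%) had a start that an all-8 circRNA used and 3542 (17.2%) had an end that one used. Both positions were used for 543 (2.64%), so that both junction sites were known but their pairing was seen in 1 library. A start alone was used by 3056 (14.9%), an end alone by 2999 (14.6%), and for 13946 (67.9%) neither position belonged to an all-8 circRNA. Read along the transcript, the acceptor was used for 3705 (18.0%) and the donor for 3436 (16.7%), and the acceptor share was the higher in all 8 libraries, with no test run. For circRNAs listed in 4 or more libraries the same shares were 35.6% for the acceptor and 32.1% for the donor.

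**Figure D2:**
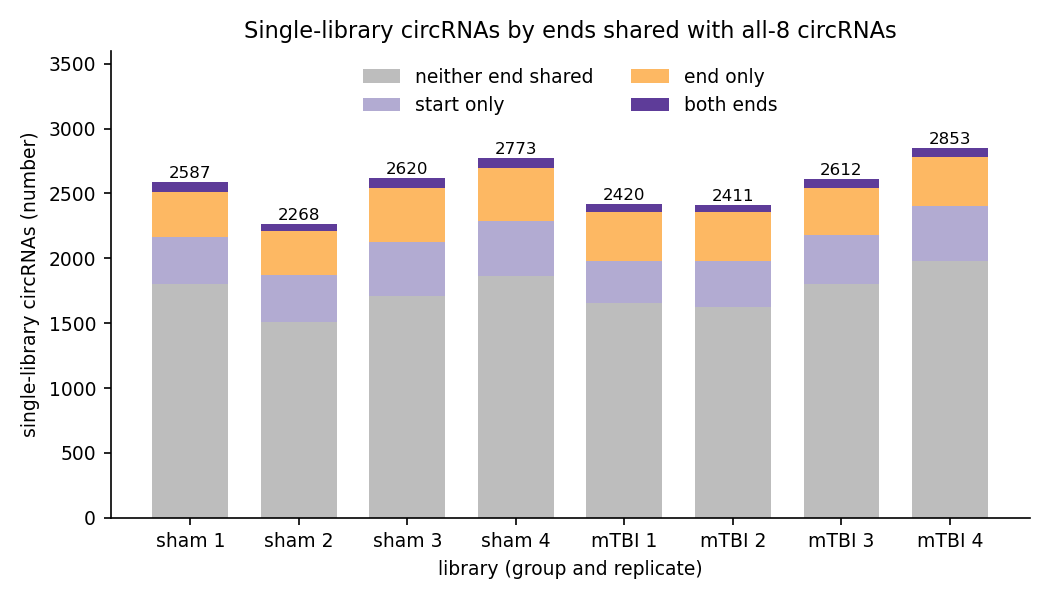
Number of single-library circRNAs in each of the 8 libraries, stacked by whether neither end, the start only, the end only or both ends are used by an all-8 circRNA. Totals run from 2268 in sham replicate 2 to 2853 in mTBI replicate 4, and the grey part, neither end, makes up 65.4% to 69.6% of every bar.

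Single-library circRNAs shared positions with all-8 circRNAs much less often than circRNAs listed in 4 or more libraries did. Within each library, its single-library circRNAs were compared with those of its listed circRNAs that stood above 0 in 4 or more libraries, no circRNA being matched with itself. A used start was found for 17.5% ± 0.882 of the single-library circRNAs and 35.4% ± 0.198 of the others (SD, n = 8 libraries). For ends the shares were 17.3% ± 1.06 and 35.1% ± 0.201. Both positions were used for 2.64% ± 0.207 of the single-library circRNAs and 13.7% ± 0.168 of the others. Neither was used for 67.9% ± 1.46 against 43.2% ± 0.248.

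All 4 differences had the same direction in 8 of 8 libraries. Neither position was used more often by 22.1 to 26.3 percentage points, and both positions were used less often by 10.7 to 11.5 points. Each of the 4 differences had an exact sign-flip permutation p of 0.00781 over the 8 libraries, the smallest that test can give, and a Benjamini-Hochberg adjusted p of 0.00977 over 5 measures (two-sided). The circRNAs listed in 4 or more libraries are largely common to the 8 libraries, so the 8 differences are not fully independent. The compared sets and the all-8 circRNAs were also defined by the same listing values, so these p-values are not independent of the choice.

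Level also differed between the compared sets. The median highest value was 0.0262 RPM for single-library circRNAs and 0.131 RPM for those listed in 4 or more libraries. Restricted in both sets to circRNAs at 2 or 3 reads in the library, the difference was -11.8 points for starts, -11.6 for ends, -5.39 for both and 18.0 for neither, at the same permutation p of 0.00781 (exact). This restriction matched level in that library alone, since the other set was listed in further libraries. Against circRNAs listed in 4 to 7 libraries, none of which is itself an all-8 circRNA, the difference was -12.0, -11.1, -5.30 and 17.8 points. When any circRNA listed in 4 or more libraries could supply the position, the difference for both positions widened from -11.1 to -20.4 points. For starts it went from -17.9 to -22.5, for ends from -17.8 to -22.8 and for neither from 24.6 to 24.96 points. In that setting the comparison set was also the set that supplied positions. Among single-library circRNAs alone, the share with neither position used changed little with level, from 69.2% at 2 reads to 66.6% at 3, 66.0% at 4 and 66.9% at 5 to 9 reads. At 10 to 19 reads it was 67.1%. The 21 with 20 or more reads stood at 61.9%, or 13 of 21.

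The share of circRNAs with neither position used fell at each step in the number of libraries that list a circRNA, and the share with both rose at each step except from 5 to 6 libraries. Neither position was used for 67.9% of circRNAs listed in 1 library, 59.5% in 2, 56.6% in 3, 53.7% in 4, 52.1% in 5, 49.7% in 6, 46.7% in 7 and 37.6% in all 8. Both were used for 2.64%, 4.69%, 5.66%, 6.01%, 7.46%, 7.38%, 9.96% and 18.5% in the same order. Single-library circRNAs stood at the end of that order. The median highest level rose along the same order, from 0.0262 RPM in 1 library to 0.297 RPM in all 8. Its part in the shares was not tested. The restriction to 2 or 3 reads matched level only within a library.

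**Figure D3:**
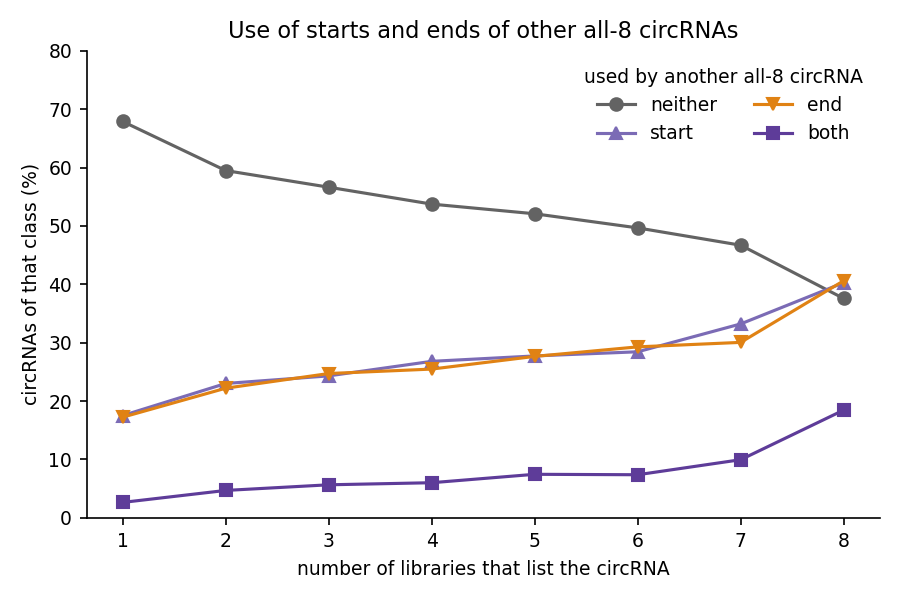
Share of circRNAs (vertical axis, percent) whose start, end, both or neither are used by another all-8 circRNA, by the number of libraries that list them (horizontal axis, 1 to 8). The single-library circRNAs at the left have the highest share with neither position used (67.9%) and the lowest with both (2.64%).

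Injury and sham libraries did not differ detectably in these shares. The share of single-library circRNAs with a used start was 17.0%, 18.4%, 18.7% and 18.0% in the sham replicates and 16.0%, 17.1%, 17.2% and 17.6% in the mTBI replicates, and the groups overlapped. The difference was -1.07 points (18.0% ± 0.755 in sham, 17.0% ± 0.696 in mTBI; SD, n = 4 each; exact permutation test, two-sided, p = 0.114, adjusted p = 0.190). For ends the values were 16.2%, 17.5%, 18.7% and 17.6% in sham and 18.2%, 17.8%, 16.5% and 15.6% in mTBI, again overlapping (exact permutation p = 0.571, adjusted p = 0.571).

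Both positions were used for 2.82%, 2.56%, 2.86% and 2.88% of the single-library circRNAs in sham and for 2.56%, 2.28%, 2.53% and 2.59% in mTBI. Here 3 sham values lay above all mTBI values, and sham replicate 2 lay among them (exact permutation p = 0.0857, adjusted p = 0.190). Neither was used for 69.6%, 66.6%, 65.4% and 67.3% in sham and for 68.3%, 67.4%, 68.9% and 69.3% in mTBI, with all mTBI values inside the sham range (difference 1.27 points; exact permutation p = 0.257, adjusted p = 0.321). The smallest p that 4 libraries against 4 can give is 0.0286, and the adjustment covers 5 measures. A measure alone at that exact permutation p would have an adjusted p of 0.143 and could not pass.

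Beyond the all-8 circRNAs, most single-library circRNAs were tied to some other junction. A start or end shared with any other listed circRNA was found for 15175 (73.9%), and 12814 (62.4%) shared one with a circRNA listed in 2 or more libraries. A further 2361 (11.5%) shared positions with other single-library circRNAs alone. The remaining 5369 (26.1%) shared neither position with any other row of the table. That share was 16.2% for circRNAs listed in 2 or 3 libraries, 12.2% for 4 to 7 and 10.1% for 4 or more. Near misses were rare: 51 starts and 54 ends lay within 5 bases of an all-8 position without matching it.

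Overlap in genomic span gave a similar picture. The span of 9877 single-library circRNAs (48.1%) overlapped an all-8 circRNA on the same strand, and that of 51 (0.248%) overlapped one on the opposite strand only. No all-8 circRNA overlapped the other 10616 (51.7%). Among circRNAs listed in 2 or 3 libraries, 54.9% overlapped on the same strand and 0.0177% (2 circRNAs) on the opposite strand only. Among circRNAs listed in 4 to 7 libraries, 59.9% overlapped on the same strand and 0.0721% (8 circRNAs) on the opposite strand only. Of the single-library circRNAs with neither position used, 3279 (23.5%) still lay across an all-8 circRNA of their strand. Plus and minus strands held 10099 and 10445 single-library circRNAs.

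Where a position was shared, the single-library circRNA was more often the longer partner. Of the 3599 that shared a start, 2000 (55.6%) reached further than every all-8 circRNA with that start, and 1214 (33.7%) fell short of all of them. Of the 3542 that shared an end, 1967 (55.5%) were longer and 1196 (33.8%) shorter than all of them. For circRNAs listed in 4 to 7 libraries the longer share was 49.9% for starts and 51.9% for ends. Among the 543 with both positions used, 302 (55.6%) were longer than every all-8 circRNA that shared either position, so that they enclosed the shared-end partners, against 46.2% of 848 circRNAs listed in 4 to 7 libraries. These shares carry no test.

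Single-library circRNAs spanned 138 to 99986 bases of the genome, which are also the shortest and longest spans of the whole table. Their median was 11996 bases, with quartiles of 4008 and 28702. Circular RNAs listed in 4 or more libraries had a median of 12061 and quartiles of 4353 and 27298. Within libraries the median was 11979 ± 854 bases for single-library circRNAs and 11957 ± 84.4 bases for the others (SD, n = 8 libraries), higher in 4 libraries and lower in 4. That difference, 22.2 bases, was far inside its spread over libraries of 807 bases (exact sign-flip permutation p = 0.961, adjusted p = 0.961). It became -650 bases among circRNAs at 2 or 3 reads (exact permutation p = 0.109) and -331 bases against circRNAs listed in 4 to 7 libraries (exact permutation p = 0.266).

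The medians were close, but both tails held a larger share of the single-library circRNAs than of those listed in 4 or more libraries. Spans of up to 1000 bases were found for 8.80% ± 0.648 of the single-library circRNAs of a library and 6.92% ± 0.114 of those listed in 4 or more (SD, n = 8 libraries), higher in 8 of 8 libraries. Spans over 50000 bases were found for 11.5% ± 0.835 against 9.77% ± 0.128, also higher in 8 of 8. Over the whole table, spans over 50000 bases made up 11.5% of circRNAs listed in 1 library, 11.4% in 2, 10.6% in 4 to 7 and 9.11% in all 8. The long tail was thus almost the same in circRNAs listed in 2 libraries. Spans of up to 1000 bases made up 8.78% in 1 library, 6.38% in 2, 6.52% in 4 to 7 and 7.23% in all 8. Both tails were chosen after the values were seen and carry no test.

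Span and shared positions moved together. Single-library circRNAs with both positions used had a median span of 32762 bases, those with a start alone 19466, those with an end alone 20039, and those with neither 9066. In circRNAs listed in 4 or more libraries the same 4 medians were 28056, 15346, 15495 and 7211 bases. Within each of these classes the single-library circRNAs were thus the longer ones, in 8 of 8 libraries for a start alone, an end alone and neither, and in 7 of 8 for both. The class with neither, which had the shortest spans, held 67.9% of the single-library circRNAs and 44.8% of the others. In every span bin from 500 bases or less to over 50000 bases, neither position was used for a larger share of the single-library circRNAs, from 86.4% against 69.4% in the shortest bin to 47.6% against 23.9% in the longest.

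**Figure D4:**
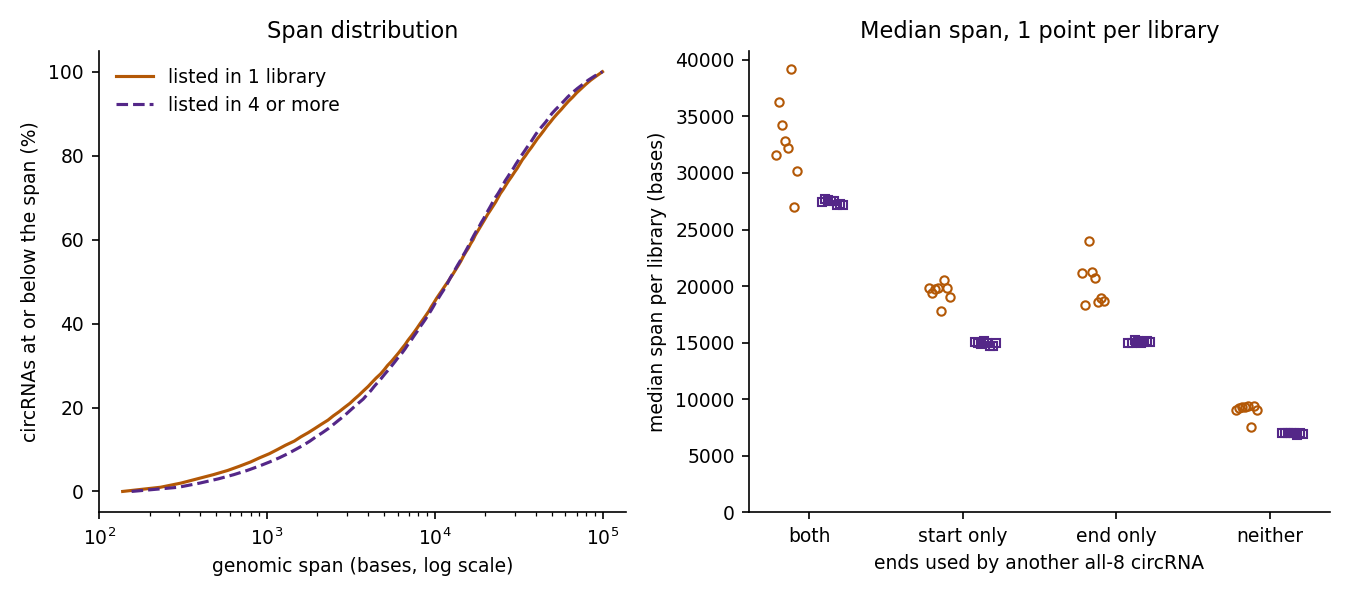
Left, percent of circRNAs at or below a genomic span (bases, log scale) for single-library circRNAs (solid orange) and those listed in 4 or more libraries (dashed purple). Right, median span in each of the 8 libraries by shared positions, with orange circles for single-library circRNAs and purple squares for the others; the distributions nearly coincide, while within each class the orange points lie higher in 7 or 8 of 8 libraries.

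Median spans of single-library circRNAs were 11903, 12429, 12625 (12624.5) and 12939 bases in the sham replicates. In the mTBI replicates they were 12547 (12546.5), 10291, 11637 and 11463 bases. Only mTBI replicate 1 lay within the upper sham range, and mTBI replicates 2, 3 and 4 lay below all sham libraries. The group means were 12474 ± 435 in sham and 11484 ± 927 in mTBI (SD, n = 4 each); their difference, -989.5 bases, did not pass (exact permutation p = 0.0857, adjusted p = 0.190). With each library's value dropped in turn, and the single-library circRNAs kept as chosen, it ranged from -1344 to -592 bases.

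Single-library circRNAs were found in 10827 of 16050 loci, a locus being all same-strand circRNAs joined by shared starts or ends. Loci with an all-8 circRNA held 9980 of them, and 10564 lay in loci without one. They were spread thinly: 208 loci held 10 or more, together 2831, and no locus held over 33. Of 9082 all-8 circRNAs, 5762 (63.4%) had a start or end that a single-library circRNA also used. With the all-8 circRNAs ordered by mean RPM and cut into 4 equal parts, that share was 60.3%, 60.4%, 64.0% and 69.1% from the lowest part to the highest (means of 0.402 to 57.7 RPM).

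Individual splice positions were seldom reused. Of 6920 distinct starts of all-8 circRNAs, 2601 (37.6%) were used by a single-library circRNA, 1847 of them by only 1. Of 6892 distinct ends, 2530 (36.7%) were used. The most used start, 128286554 on the minus strand of chromosome 5, took part in 7 single-library circRNAs from only 3 libraries, 4 in sham and 3 in mTBI, with spans of 6632 to 98097 bases and levels of 0.0258 to 0.0782 RPM. Its all-8 circRNA, which ends at 128302820, had 0.284, 0.380, 0.181 and 0.258 RPM over the 4 sham libraries and 0.155, 0.154, 0.261 and 0.389 RPM over the 4 mTBI libraries. The most used end, 21669948 on the minus strand of chromosome 3, also took part in 7, spread over 6 libraries, at 0.0258 to 0.103 RPM. The all-8 circRNA with that end, which starts at 21651137, averaged 0.139 ± 0.0551 RPM over the sham and 0.146 ± 0.0266 RPM over the mTBI libraries (SD, n = 4 each).

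The locus with the most single-library circRNAs lay on chromosome 11 (minus strand) between 36327826 and 36414652. It held 59 circRNAs, of which 33 were listed in 1 library and 7 in all 8. Its single-library circRNAs numbered 0, 2, 6 and 6 in the sham replicates and 5, 6, 1 and 7 in the mTBI replicates, so their number varied as much within groups as between them. They stood at 0.0257 to 0.0917 RPM and made up 7.16% of the summed RPM of the locus. Its most abundant circRNA, between 36390972 and 36397722, averaged 0.505 ± 0.0608 RPM over the sham and 0.453 ± 0.166 RPM over the mTBI libraries (SD, n = 4 each). Of the 33, 16 used neither position of an all-8 circRNA, 6 a start alone, 8 an end alone and 3 both.

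On chromosome 10 (minus strand) between 72301678 and 72417059, 29 of 66 circRNAs were listed in 1 library, 14 in sham and 15 in mTBI. Of these 29, 13 used a start alone, 6 an end alone and 2 both, which left 8 with neither. Its most used start, 72329605, took part in 5 of the 29. The most abundant circRNA there, between 72369079 and 72371838, averaged 1.57 ± 0.201 RPM over the sham and 1.57 ± 0.323 RPM over the mTBI libraries (SD, n = 4 each).

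On chromosome 6 (plus strand), the locus between 38478635 and 38762910 held 28 single-library circRNAs among 62. They numbered 3, 7, 2 and 7 in the sham replicates and 3, 1, 2 and 3 in the mTBI replicates, 19 against 9 in all, with overlapping libraries. The locus was picked for its total, and its groups were not tested. Here 20 of the 28 used neither position of an all-8 circRNA and 0 used both. Its most abundant circRNA, between 38607521 and 38619590, averaged 0.382 ± 0.0673 RPM over the sham and 0.298 ± 0.101 RPM over the mTBI libraries (SD, n = 4 each).

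On chromosome 14 (plus strand) between 108065457 and 108250059, 28 of 72 circRNAs were listed in 1 library, 14 in each group. On chromosome 5 (minus strand) between 7635757 and 7876439 it was 27 of 64, 16 in sham and 11 in mTBI. The most abundant circRNAs of these loci, from 108168031 to 108181540 and from 7703776 to 7780390, averaged 0.427 ± 0.155 and 1.40 ± 0.147 RPM over the sham libraries, and 0.443 ± 0.0381 and 1.30 ± 0.278 RPM over the mTBI libraries (SD, n = 4 each). Single-library circRNAs made up 5.33% and 3.02% of the RPM of these 2 loci. Those on chromosome 5 were long, with a median of 44666 bases, against 14092 bases at the chromosome 11 locus.

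Across chromosomes the single-library share of all listed circRNAs varied little, from 37.1% on chromosome 4 (1177 of 3169) to 43.5% on chromosome X (588 of 1353). Chromosome 1 held the most, 2103, with 1031 in sham and 1072 in mTBI.

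A small set of single-library circRNAs stood far above the rest. Of 5513 circRNAs with 20 or more reads in their highest library, 5222 (94.7%) were listed in all 8 libraries and 21 (0.381%) in 1 library. With 100 or more reads it was 892 of 909 in all 8 and 3 in 1 library. Sham libraries held 13 of the 21 and mTBI libraries 8, with 1 to 4 in every library. The 5 highest of each group are described next by position. Their own values chose them, so no fold change or test is given for them.

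The highest of all, on chromosome 13 (minus strand) between 109403515 and 109471561, reached 2.31 RPM (178 reads) in mTBI replicate 4 and was listed at 0 in the other 7 libraries. Both its positions were used by all-8 circRNAs. The strongest that shares its end, from 109442255, had 8.84, 6.65, 7.91 and 6.14 RPM over the 4 sham libraries and 7.16, 5.74, 7.41 and 7.54 RPM over the 4 mTBI libraries. The strongest that shares its start, ending at 109459916, had 0.685, 0.642, 0.919 and 0.696 RPM over the 4 sham libraries and 0.426, 0.617, 0.287 and 0.506 RPM over the 4 mTBI libraries. In mTBI replicate 4 both partners lay within the range of the other libraries, so the single-library junction appeared beside them.

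The second highest in mTBI, on chromosome 10 (plus strand) between 48460656 and 48470732, reached 0.722 RPM (56 reads) in mTBI replicate 1 and was at 0 elsewhere. It too had both positions used. The all-8 circRNA that shares its start, ending at 48484868, had 0.749, 0.564, 0.660 and 0.670 RPM over the 4 sham libraries and 0.581, 0.450, 0.690 and 0.636 RPM over the 4 mTBI libraries. In mTBI replicate 1 the single-library circRNA was thus above that partner, which every library listed at a similar level. The partner that shares its end, from 48452001, stood lower, at 0.0391 to 0.103 RPM over the 8 libraries, and its highest value was in mTBI replicate 1.

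Of the 10 described here, 7 used neither position of an all-8 circRNA. The highest in sham, on chromosome 3 (minus strand) between 67723614 and 67757148, reached 1.81 RPM (138 reads) in sham replicate 2. Another with that start, ending at 67762319, was listed in 5 libraries at 0.0386 to 0.103 RPM and was at 0 in sham replicate 2. The strongest circRNA across this stretch, between 67755163 and 67762319, had 0.530, 0.655, 0.647 and 0.516 RPM over the 4 sham libraries and 0.452, 0.476, 0.808 and 0.675 RPM over the 4 mTBI libraries. Sham replicate 2 was not apart from the others for that one.

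On chromosome 20 (plus strand), the circRNA between 5351888 and 5414567 reached 1.29 RPM (100 reads) in sham replicate 3. The single other circRNA with its end, from 5347661, had 0.581 RPM in sham replicate 1 and 0.490 RPM in sham replicate 4, and was at 0 in the remaining 6 libraries. These 2 circRNAs made up their locus, were never listed together in a library and were listed in no mTBI library. For the first, the choice fixed its absence from mTBI libraries. Of all circRNAs listed in exactly 2 libraries, 22.6% were likewise listed in 2 sham libraries, so no group difference is read from the locus.

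The third in sham lay alone. On chromosome 5 (plus strand), the circRNA between 74954384 and 74956829, with a span of 2446 bases, stood at 1.20 RPM (93 reads) in sham replicate 4, and no other listed circRNA overlapped it on its strand. The fourth, on chromosome 16 (plus strand) between 2289439 and 2313646, reached 0.956 RPM (74 reads) in sham replicate 1. It was surrounded by 10 overlapping circRNAs, the strongest of which, between 2297907 and 2304875, reached only 0.0516 to 0.103 RPM over the 8 libraries. Another with that start, ending at 2314973, had 0.0775 RPM in sham replicate 1, 0.0391 RPM in mTBI replicate 3 and 0 elsewhere.

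The fifth, on chromosome 4 (minus strand) between 183498456 and 183537970, reached 0.776 RPM (60 reads) in sham replicate 3 and shared its end with an all-8 circRNA. That partner, from 183491269, had 0.0646, 0.0786, 0.0388 and 0.0387 RPM over the 4 sham libraries and 0.0645, 0.0772, 0.130 and 0.0260 RPM over the 4 mTBI libraries. Its locus held 46 circRNAs, 20 of them listed in 1 library.

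The 3 others in mTBI used no all-8 position. On chromosome 3 (minus strand), the circRNA between 423701 and 431925 reached 0.695 RPM (54 reads) in mTBI replicate 2. One circRNA with the same end starts at 423834 and was listed in 4 libraries at 0.0387 to 0.0655 RPM, mTBI replicate 2 among them. On chromosome 1 (minus strand), the circRNA between 117912444 and 117976479 reached 0.636 RPM (49 reads) in mTBI replicate 4. The circRNA that shares its end, from 117926670, was listed in 6 libraries at 0.0902 to 0.223 RPM, with 0.221 RPM in mTBI replicate 4. On chromosome 3 (plus strand), the circRNA between 172517043 and 172523562 reached 0.352 RPM (27 reads) in mTBI replicate 3, overlapping one from 172518176 to 172524861 that was listed in 6 libraries at 0.155 to 0.275 RPM.

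**Figure D5:**
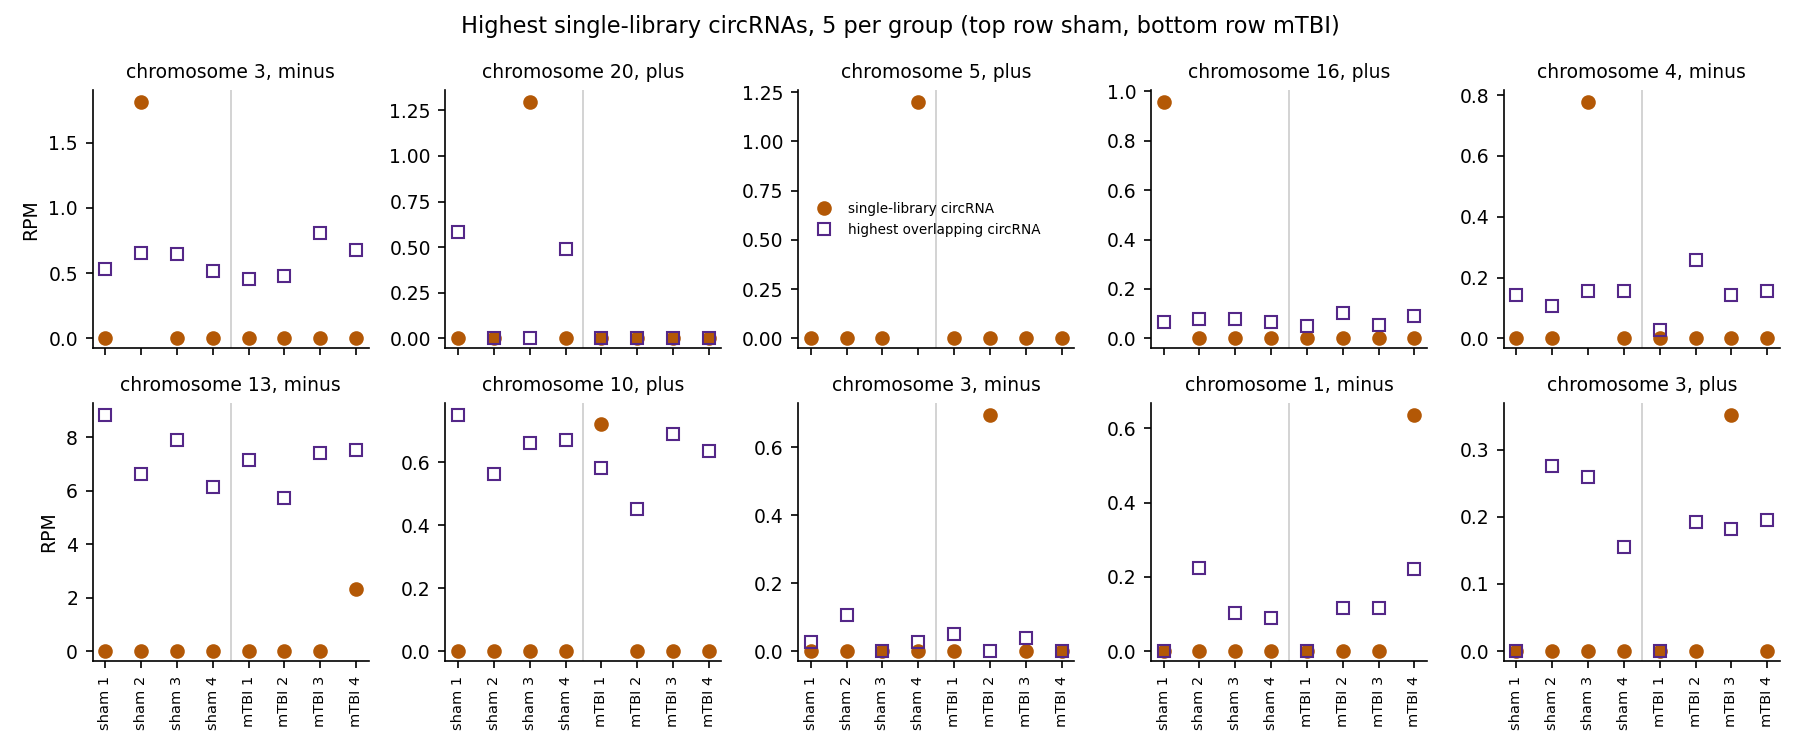
RPM in each of the 8 libraries for the 5 highest single-library circRNAs of sham (top row) and of mTBI (bottom row), as filled orange circles, with the most abundant overlapping circRNA of the same strand as open purple squares. Each single-library circRNA is above 0 in 1 library, up to 2.31 RPM, while the overlapping circRNA is listed in all 8 libraries in 5 of the 10 panels; the plus-strand panel of chromosome 5 has none.

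The shortest single-library circRNA, 138 bases on chromosome 1 (minus strand) between 100466758 and 100466895, reached 0.0257 RPM (2 reads) in mTBI replicate 2. The longest, 99986 bases on chromosome 14 (minus strand) between 54305729 and 54405714, reached 0.0389 RPM (3 reads) in mTBI replicate 4. Both were alone in their loci.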

How the data were processed

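The authors deposited RPM values, 1 column per library per the file headers, for circRNA junctions on Rnor_6.0. Trimmomatic 0.36 and DESeq are named in the submitters' processing notes. Names of an aligner and a circRNA caller were not given in the sources used here. RNA integrity numbers were at least 7, per the labels. Columns named Con were taken as the sham libraries of the same replicate number, since the labels call the sham samples controls.

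Within each library all RPM values were whole multiples of 0.5 times the smallest, so the smallest was taken as 2 reads, out of a denominator of 76300000 to 77700000 reads. The labels describe 8 cortex samples and p-values measure the spread between them. Replicates differed beyond counting noise (chi-square per degree of freedom 2.87 to 3.64 over circRNAs with at least 20 reads in a pair).

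Groups were compared by exact permutation over 70 assignments, and single-library with other circRNAs by exact sign flips over 256 patterns, with Benjamini-Hochberg adjustment over 5 measures each. The limma 3.58.1 fit (R 4.3.3) used log2(RPM + 0.0259) and a trend. Functions were tested on simulated data. Python 3.11.15, numpy 2.4.6, pandas 2.3.3, scipy 1.17.1, networkx 3.6.1 and matplotlib 3.10.9 were used. Named circRNAs are the 5 highest per group, the shortest and the longest, with the 5 loci richest in single-library circRNAs. Members, rules and lists were chosen with earlier results of these data known.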

Additional observations from a re-analysis of the deposited data

Results flagged for a closer look

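In 34 groups of 4 libraries, covering 17 measures of the single-library circRNAs and of library size, 2 had 1 library far from the other 3, by the size of its gap to the nearest library relative to the group's range. Chance flags about 1 group in 20. The median level of single-library circRNAs in sham replicate 4 was 0.0387 RPM, and the other sham libraries had 0.0258 to 0.0262 RPM; that is the step from 2 to 3 reads, and 48.8% of its single-library circRNAs stood at 2 reads. Sham replicate 2 listed 21508 circRNAs in all, against 22806 to 23069 in the other sham libraries, and it also held the fewest single-library circRNAs of the 8 libraries.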

How the results depend on the processing

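The 5 comparisons of mTBI with sham kept their direction and did not pass in any of 30 recomputed values with all libraries and 40 with a library left out (adjusted p from 0.107 to 1). For spans, position shares and numbers, leaving a library out only dropped its value from the mean. Which circRNAs counted as single-library, listed in 4 or more or all-8 stayed as set by all libraries. Those ranges therefore do not show how stable the sets are. A measure alone at an exact permutation p of 0.0286 has an adjusted p of 0.143 and cannot pass. Both positions reached that p with matching within 5 bases, at 2 or 3 reads and without sham replicate 2. Span reached it without mTBI replicate 1. Not passing is therefore not read as absence of a difference. The fit with the replicate block (equal replicate numbers as pairs) gave the same differences, -989.5 bases, -1.07, -0.494, -0.291 and 1.27 points, for span, start, end, both and neither, with exact permutation adjusted p of 0.417, 0.312, 0.750, 0.312 and 0.469. With 4 pairs the exact permutation p cannot fall below 0.125, so none could pass there. Same-numbered libraries did not deviate together (correlations of -0.00355 to 0.00672), so the numbers were not taken as pairs. Against circRNAs listed in 4 or more libraries, the 4 position shares passed in every setting except the replicate block over 4 means, where the differences -17.9, -17.8, -11.1 and 24.6 points had a permutation p of 0.125, the smallest that exact test can give. With 1 library's value dropped at a time and the sets unchanged, they ranged from -18.1 to -17.6, -18.0 to -17.6, -11.1 to -11.0 and 24.4 to 24.96 points. In every setting, listing values defined the compared sets and the circRNAs that supplied positions, so these p-values are not independent of the choice. The span difference reversed to -649.7 bases at 2 or 3 reads and to -330.6 bases against circRNAs listed in 4 to 7 libraries, and ranged from -112 to 257 bases with 1 library left out; the cause was not tested. The difference in number, 12, ranged from -86.0 to 82.3 with 1 library left out and was 65.5 with thinned reads. The count of circRNAs passing limma, 5, became 10 with 4 times the pseudocount, 55 with no filter, 0 with the replicate block (889 at an unadjusted p under 0.05) and 2 to 9 with 1 library left out; limma voom on reads, chosen after seeing the data, gave 3. All listed circRNAs lay on chromosomes 1 to 20, X and Y, so that restriction changed nothing.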

Other observations

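On the minus strand of chromosome 1, between 117912444 and 121361328, 3 of the 21 single-library circRNAs with 20 or more reads lay within 3448885 bases. They came from different libraries: mTBI replicate 4 (0.636 RPM), sham replicate 2 (0.564 RPM, from 121290678 to 121361328) and sham replicate 4 (0.284 RPM, from 120893965 to 120956208). The stretch held 98 listed circRNAs, 45 of them listed in 1 library and 9 in all 8. Of the 45, 5 (11.1%) had 10 or more reads, against 0.472% of all single-library circRNAs. Spans over 50000 bases were found for 18 (40%), against 11.5% of all single-library circRNAs. The 3 circRNAs named above set the stretch and count in both shares, so the choice itself raised both. The stretch was picked after its values were seen and was not tested.

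On chromosome 16 (plus strand), the single-library circRNA between 26755422 and 26832775 reached 0.646 RPM (50 reads) in sham replicate 1 and shared its start with an all-8 circRNA.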
